A study of Mus musculus with 12 samples.

Results

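The 9 genes described here were the neuregulins Nrg1, Nrg2, Nrg3 and Nrg4, the growth factor gene Egf, and the receptors Egfr, Erbb2, Erbb3 and Erbb4. They were chosen by name as ligands and receptors of the ErbB family, after Nrg3 had passed the thresholds between SCA1 sedentary and WT sedentary mice in earlier work on the same counts. The count tables list 56941 genes, and all 9 members were among the 20341 that passed the filter on low counts. The 12 libraries hold bulk RNA of the cerebellum, 1 per mouse, from 4 groups of 3 mice at an age of 16 weeks. SCA1 mice were Atxn1154Q/2Q knock-in mice, in which 1 allele of Atxn1 carries an expanded CAG repeat and is expressed from the mouse locus in every cell that uses that gene, and WT mice were C57BL/6J littermates. WT exercise and SCA1 exercise mice were housed alone with a running wheel for 12 weeks from 4 weeks of age. WT sedentary and SCA1 sedentary mice had no wheel and were housed in groups, so wheel running and housing cannot be told apart. Wheels had been taken out days before the tissue was collected, male and female mice were used, and the sex of each mouse was not given in the labels.

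ErbB receptors are membrane tyrosine kinases that pair when a ligand with an EGF-like module binds, and then signal through the MAPK and PI3K pathways. Neuregulins bind Erbb3 or Erbb4, Egf binds Egfr, Erbb2 has no known soluble ligand and acts as a partner, and Erbb3 has little kinase activity of its own. In the brain, Nrg1 is known for its parts in myelination and in synapses, Nrg3 is a neuronal membrane-bound ligand of Erbb4, and Erbb4 is known from inhibitory interneurons. Purkinje cells, the output neurons of the cerebellar cortex, are the cells in which SCA1 has been studied most.

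The EGF-like module is the part of each ligand that binds the receptor, and it is shown for the 3 neuregulins on which the results below turn and for Egf. Each sequence is the coding strand of the Ensembl canonical transcript in GENCODE M39 on GRCm39, from the first to the sixth cysteine codon, and the 6 cysteine codons are in capitals. All 4 genes lie on the minus strand, and each module is coded by 2 exons, so the positions given span an intron. The Nrg3 module lies within chr14:38390218-38734011, that of Nrg4 within chr9:55149461-55188253, that of Nrg1 within chr8:32327726-32339426 and that of Egf within chr3:129479971-129484499.
Nrg3: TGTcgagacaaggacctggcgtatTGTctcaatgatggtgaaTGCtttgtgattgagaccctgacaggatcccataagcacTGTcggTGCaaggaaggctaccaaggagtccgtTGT
Nrg4: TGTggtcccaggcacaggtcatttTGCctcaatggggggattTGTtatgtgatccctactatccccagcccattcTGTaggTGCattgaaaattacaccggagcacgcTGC
Nrg1: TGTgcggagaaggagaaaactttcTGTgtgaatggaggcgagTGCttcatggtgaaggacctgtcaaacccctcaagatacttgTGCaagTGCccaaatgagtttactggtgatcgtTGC
Egf: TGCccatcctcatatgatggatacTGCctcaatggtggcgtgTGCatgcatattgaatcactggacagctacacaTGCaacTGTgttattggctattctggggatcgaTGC
The spacing of the cysteine codons was the same in all 4 modules except after the third cysteine, where Nrg4 and Egf had 10 codons, Nrg3 had 12 and Nrg1 had 13. The counts are of whole genes and do not tell apart transcripts with and without this module.

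Each library held between 20556802 and 32127508 counts on the reverse strand, the strand of the transcripts in these libraries. The libraries of SCA1 sedentary mouse 16 and SCA1 exercise mouse 55 stood apart. In them 6.38% and 6.33% of read pairs mapped to several places, against 2.08% to 3.46% in the other 10 libraries. The share assigned to no gene was 39.3% and 44.1%, against 46% to 58.7%. Their 6 brainstem markers (Hoxb5, Hoxa5, Hoxb3, Hoxc4, Slc6a4 and Tph2) summed to 50.2 and 35.6 counts per 1000000 counts (CPM), against 0.351 to 3.19 CPM in the other 10 libraries, where 5 of the 6 were at 0 in at least 1 library. Their granule cell markers summed to 3032 and 3877 CPM, against 5293 to 6025 CPM in the others, and their oligodendrocyte markers to 7170 and 5730 CPM, against 2569 to 4325 CPM. Purkinje and granule cell markers were present in every library. Atxn1 had 147 to 193 CPM, with overlap between the genotypes, and the counts sum both alleles of the gene. Fewer cells of a type and less RNA per cell cannot be told apart in any of these values.

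Levels were compared between genes per kilobase of exon. Nrg2 was the highest of the 9, with a mean of 11.9 CPM per kb over the 12 mice, followed by Erbb4 with 6.62 CPM per kb. Their ranges overlapped through the Nrg2 value of mouse 16, and every Erbb4 value lay above every value of the genes below it in this order. Nrg3, Erbb3 and Egfr lay close together at 2.66, 2.64 and 2.58 CPM per kb, and their ranges over the mice overlapped. Nrg1 had 1.64 and Erbb2 1.07 CPM per kb, and the lowest Nrg1 value, 1.11 CPM per kb, fell within the range of Erbb2. Egf with 0.415 and Nrg4 with 0.228 CPM per kb were the lowest, and their ranges overlapped too. Among all genes tested, Nrg2 stood at the 84.9th percentile of this level, Erbb4 at the 71.3rd and Nrg4 at the 9.28th. Thus per kilobase a neuregulin stood at each end of the order, and Erbb4 was the receptor with the highest level. The order and percentiles depend on the length used, that of all annotated exons joined, which was 4.22 kb for Nrg2 and 14.1 kb for Nrg4. In CPM without this division Erbb4, with a mean of 84.5, stood above Nrg2 with 50.1, and Nrg4 had 3.22.

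**Figure D1:**
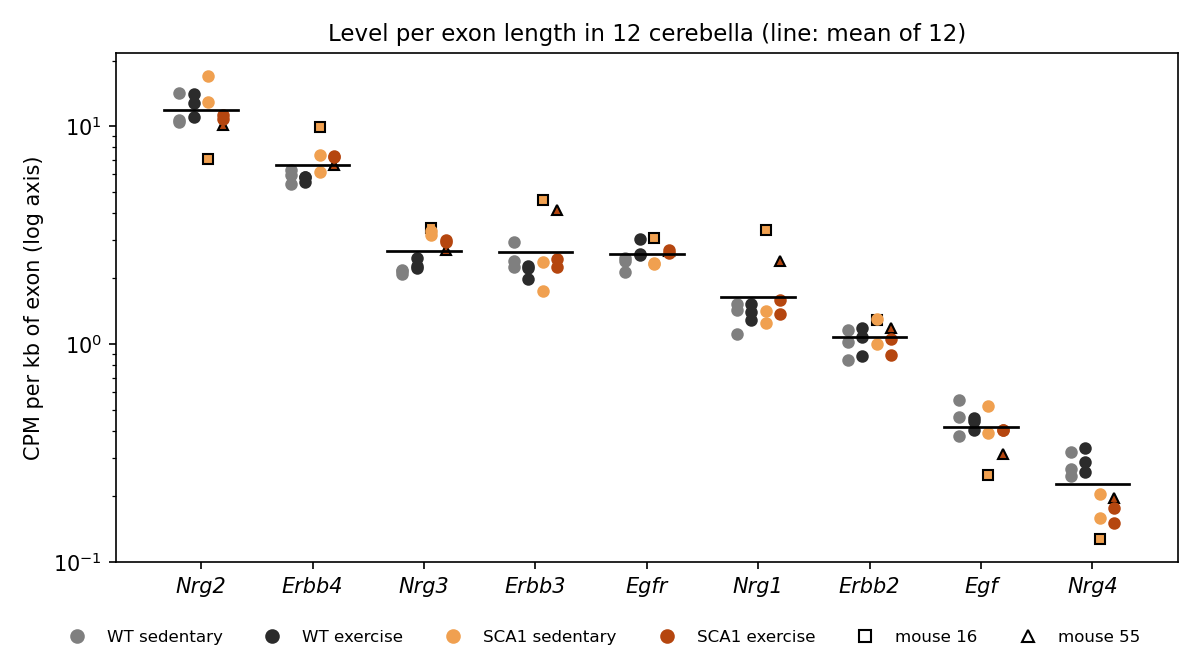
Level of each gene in CPM per kilobase of exon (vertical log axis) in each of the 12 mice, with genes ordered by their mean (black line) and colours for the 4 groups. Nrg2 and Erbb4 lie highest and Egf and Nrg4 lowest, and mice 16 (square) and 55 (triangle) lie above the other 10 mice for Nrg1 and Erbb3.

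Nrg3 (ENSMUSG00000041014, chromosome 14 from 38087063 to 39196036, minus strand, protein coding) was higher in every SCA1 mouse than in every WT mouse. WT sedentary mice had 30.9, 32.1 and 32.4 CPM and SCA1 sedentary mice had 46.8, 48.9 and 50.3 CPM. The log2FC of 0.61 (SE 0.09) between these groups is a description only, since Nrg3 was selected on it. With each mouse left out in turn it stayed between 0.59 and 0.63, and its call held without mouse 55 but was lost without any 1 of the other 11 mice. WT exercise mice had 32.9, 33.8 and 36.8 CPM and SCA1 exercise mice had 39.9, 43.6 and 44.2 CPM. The exercise groups did not overlap either, and these 6 libraries are not among those compared when the gene was chosen, although all 12 share 1 estimate of the spread. Their log2FC was 0.30 (SE 0.09, n = 3 per group, edgeR quasi-likelihood adjusted p = 0.960 over all genes tested), so the difference did not pass the correction. Over 19 alternative settings it lay between 0.26 and 0.36, with adjusted p from 0.244 to 1. Of these, 12 left out 1 mouse each, which cannot turn the sign of groups that do not overlap. Without mice 16 and 55 it was 0.36 (edgeR adjusted p = 0.244). The level in the 12 mice came from 750 to 1424 counts per library.

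For Nrg3 the 4 groups were all apart from each other. From low to high they were WT sedentary, WT exercise, SCA1 exercise and SCA1 sedentary, with means of 31.8 ± 0.804, 34.5 ± 2.04, 42.5 ± 2.35 and 48.7 ± 1.78 CPM (SD, n = 3). The ends of this order are the groups on which Nrg3 was chosen, so the order is a description only. The share of all genes with all 4 groups apart was not computed. The 9 Purkinje cell markers summed to 8048 to 9084 CPM in WT sedentary, 8502 to 8992 CPM in WT exercise, 6489 to 8023 CPM in SCA1 exercise and 4868 to 6541 CPM in SCA1 sedentary mice, and none was at 0 in any library. Of these markers, 8 of 9 in the sedentary and 7 of 9 in the exercise groups were lower in each SCA1 than in each WT mouse, while 11.4% and 14.2% of all genes did not overlap in either direction. This was not particular to Purkinje cells. All 7 granule cell markers had a negative log2FC in both comparisons, and 4 and 2 of them were lower in each SCA1 mouse. The part of either set of markers in the Nrg3 difference was not tested.

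**Figure D2:**
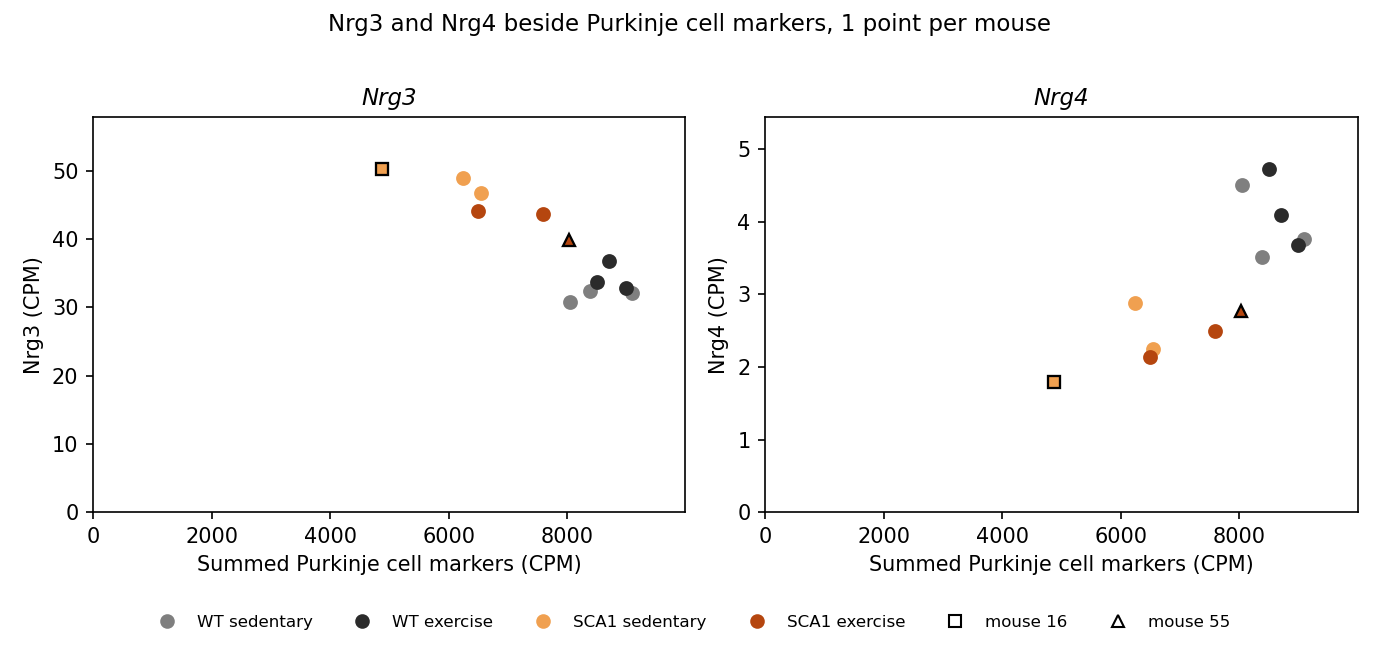
Nrg3 and Nrg4 in CPM (vertical axes) against the summed CPM of 9 Purkinje cell markers (horizontal axes), 1 point per mouse and 1 colour per group. All 6 SCA1 mice lie above the 6 WT mice for Nrg3 and below them for Nrg4, and to their left for the markers.

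Nrg4 (ENSMUSG00000032311, chromosome 9 from 55121336 to 55234128, minus strand), a small neuregulin known as a ligand of Erbb4 and best known from adipose tissue, went the other way. WT sedentary mice had 3.51, 3.76 and 4.51 CPM, and WT exercise mice had 3.68, 4.09 and 4.73 CPM. SCA1 sedentary mice had 1.80, 2.25 and 2.89 CPM, and SCA1 exercise mice had 2.14, 2.50 and 2.78 CPM. Every SCA1 mouse was therefore below every WT mouse. Between the exercise groups the log2FC was −0.75 (SE 0.23, edgeR adjusted p = 0.960), and over the 19 alternatives it lay between −0.84 and −0.24 with adjusted p from 0.288 to 1. The log2FC of the sedentary groups was −0.77 (SE 0.23), given as a description. The level rests on only 50 to 143 counts per library.

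The strand of the counts mattered for Nrg4. Exons of the gene share 1595 bases, or 11.3% of its exon bases, with Fbxo22 on the opposite strand, which had 722 to 1108 counts per library. Of all counts on Nrg4 on either strand, 79.3% were on the forward strand, against 0.180% for Egfr. With unstranded counts the log2FC of SCA1 against WT was −0.34 in the sedentary and −0.24 in the exercise groups. Nrg2 is also overlapped on the opposite strand, by Psd2 over 25.4% of its exon bases.

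**Figure D3:**
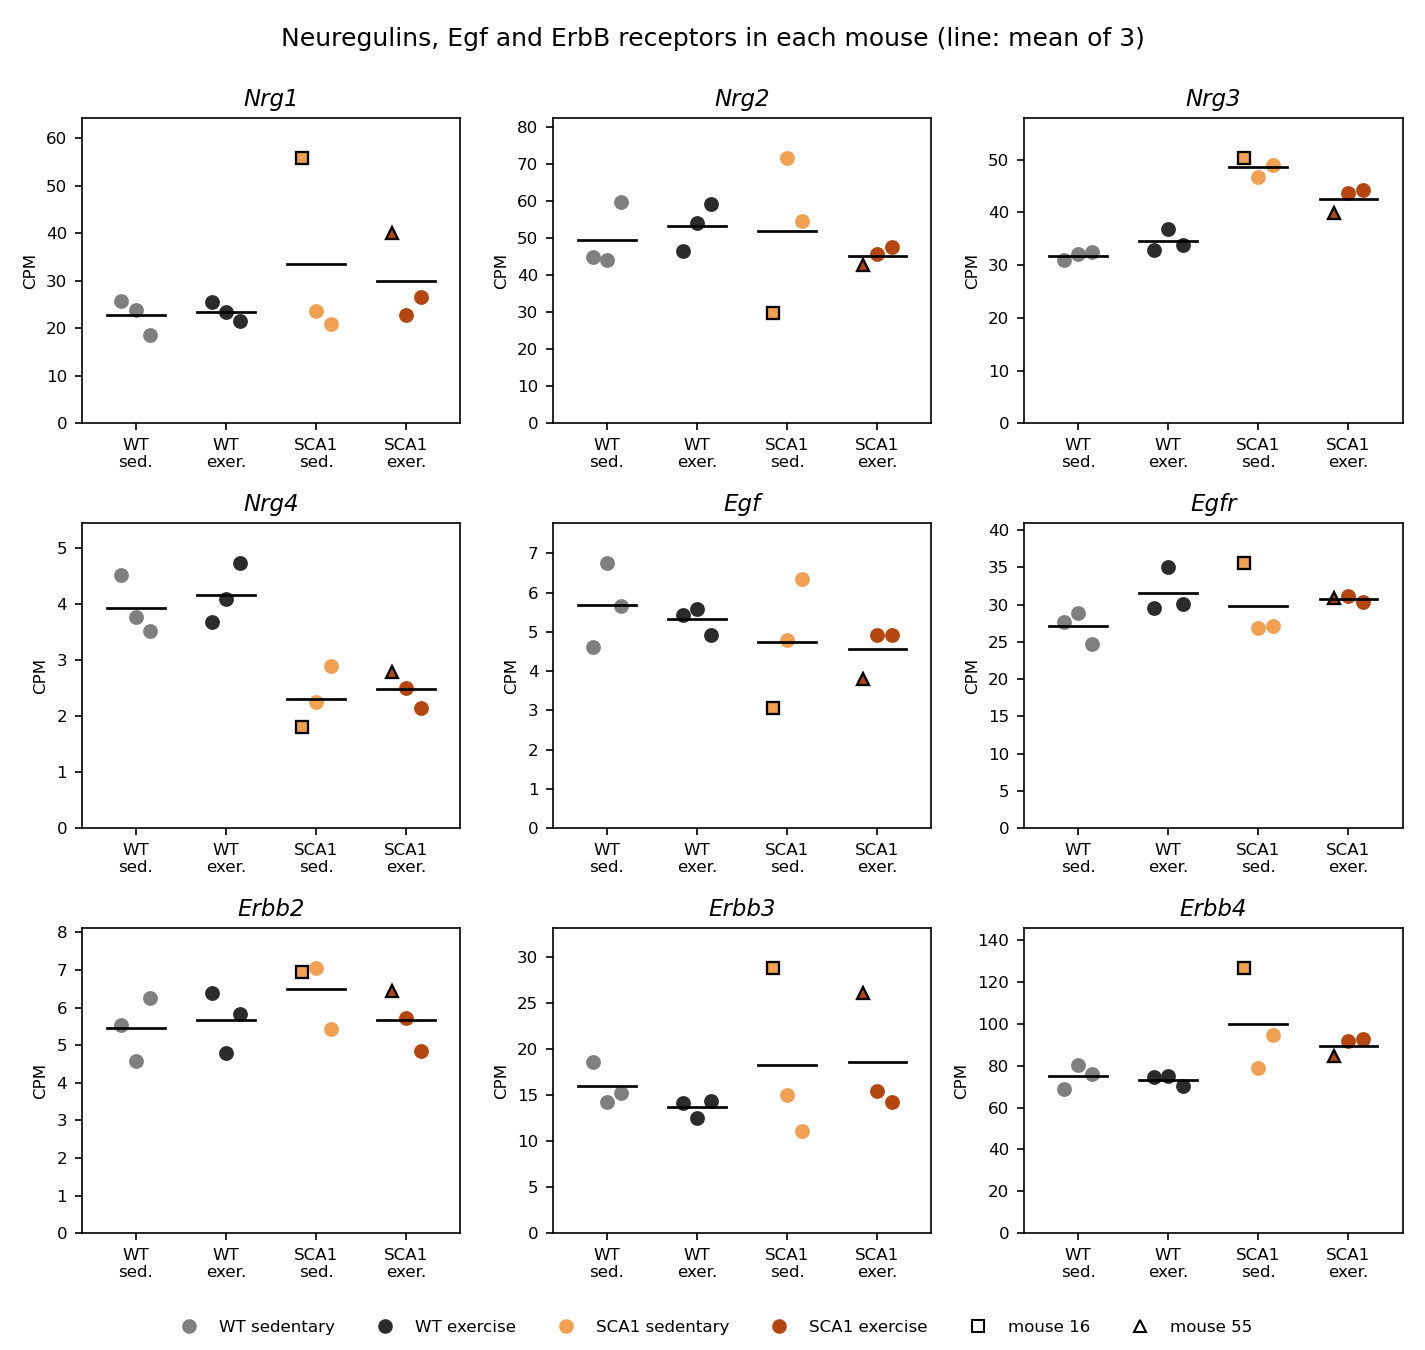
Level of each of the 9 genes in CPM (vertical axes from 0) in each mouse, by group (horizontal axes), with the mean of 3 mice as a black line. The SCA1 and WT mice are apart for Nrg3 and Nrg4, and mice 16 (square) and 55 (triangle) stand above all others for Nrg1 and Erbb3.

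Erbb4 (ENSMUSG00000062209, chromosome 1 from 68071345 to 69147619, minus strand), the kinase-active receptor of all 4 neuregulins, had a mean of 84.5 CPM over the 12 mice. WT exercise mice had 70.4, 74.6 and 74.9 CPM, and SCA1 exercise mice had 84.6, 91.6 and 92.6 CPM. These groups did not overlap, with a log2FC of 0.29 (SE 0.14, edgeR adjusted p = 0.960). Mouse 55 was the lowest of the SCA1 exercise mice, and without mice 16 and 55 the log2FC was 0.34 (edgeR adjusted p = 0.318). Over its 19 alternatives the adjusted p lay between 0.318 and 1. WT sedentary mice had 68.9, 75.9 and 80.1 CPM, and SCA1 sedentary mice had 78.8, 94.5 and 126.6 CPM. The highest value was that of mouse 16, and the sedentary groups overlapped. Their log2FC was 0.42 (SE 0.14) with all mice and 0.23 without mice 16 and 55.

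Nrg1 (ENSMUSG00000062991, chromosome 8 from 32303906 to 33374825, minus strand), the ligand of Erbb3 and Erbb4 known for its part in myelination, was high in 2 libraries. It had 55.8 CPM in mouse 16 and 40.1 CPM in mouse 55, and 18.5 to 26.6 CPM in the other 10 mice. The SCA1 and WT groups overlapped in both activity groups. Between SCA1 exercise and WT exercise mice the log2FC was 0.35 (SE 0.32, edgeR adjusted p = 0.960), and it was 0.09 without mice 16 and 55. Between the sedentary groups it was 0.56 (SE 0.32) with all mice and −0.01 without mice 16 and 55. A second Ensembl ID with the symbol Nrg1 lies inside the gene and had 0 counts in all libraries.

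Erbb3 (ENSMUSG00000018166, chromosome 10 from 128403392 to 128425811, minus strand), a neuregulin receptor that signals by pairing with Erbb2 and is known in oligodendrocytes, stood high in the same 2 libraries. Mouse 16 had 28.8 CPM and mouse 55 had 26.1 CPM, and the other 10 mice had 11.1 to 18.6 CPM. The log2FC of SCA1 exercise against WT exercise mice was 0.45 (SE 0.31, edgeR adjusted p = 0.960), and without mice 16 and 55 it was 0.13. Between the sedentary groups it was 0.19 (SE 0.31) with all mice and −0.28 without mice 16 and 55. The groups overlapped in both activity groups. These are the 2 libraries that also held the most brainstem and oligodendrocyte marker RNA and the least granule cell marker RNA, and the part of those markers in the Nrg1 and Erbb3 values was not tested.

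**Figure D4:**
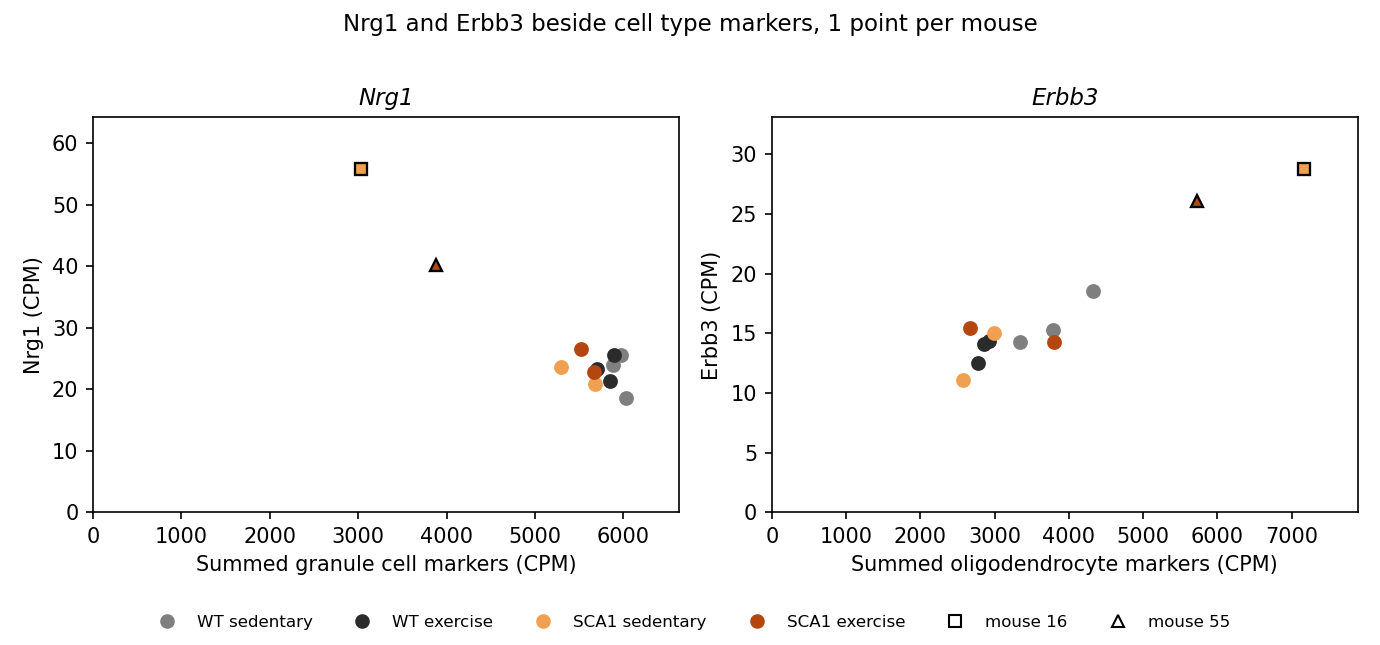
Nrg1 against 7 summed granule cell markers and Erbb3 against 8 summed oligodendrocyte markers, all in CPM, 1 point per mouse. Mice 16 (square) and 55 (triangle) lie apart from the other 10 on each axis of both panels.

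Nrg2 (ENSMUSG00000060275, chromosome 18 from 36149819 to 36330456, minus strand), a neuregulin that binds Erbb4, ranged from 29.8 CPM in mouse 16 to 71.7 CPM in mouse 194, both SCA1 sedentary. WT sedentary mice had 44.2 to 59.8 CPM, WT exercise mice 46.6 to 59.3 CPM and SCA1 exercise mice 42.7 to 47.5 CPM. No pair of groups was apart in a genotype or exercise comparison. Between the exercise groups the log2FC was −0.24 (SE 0.24, edgeR adjusted p = 0.960), and between the sedentary groups it was 0.07 (SE 0.24) with all mice and 0.37 without mice 16 and 55.

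Egf (ENSMUSG00000028017, chromosome 3 from 129470410 to 129549093, minus strand) had 4.61 to 6.75 CPM in WT sedentary, 4.93 to 5.59 CPM in WT exercise, 3.07 to 6.35 CPM in SCA1 sedentary and 3.81 to 4.93 CPM in SCA1 exercise mice. The SCA1 exercise mice lay below the WT exercise mice only by a difference smaller than the rounding of these values. The log2FC of these 2 groups was −0.22 (SE 0.25, edgeR adjusted p = 0.960). The lowest value of each SCA1 group was that of mouse 16 or mouse 55, and without them the log2FC was −0.10. The gene had 87 to 158 counts per library.

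Egfr (ENSMUSG00000020122, chromosome 11 from 16702198 to 16868158, plus strand), the receptor of Egf, had 24.8 to 28.8 CPM in WT sedentary and 29.5 to 35.0 CPM in WT exercise mice. These groups did not overlap, and their log2FC was 0.22 (SE 0.13, edgeR adjusted p = 0.958). SCA1 sedentary mice had 26.8 to 35.6 CPM and SCA1 exercise mice 30.3 to 31.1 CPM, which overlapped. The log2FC of SCA1 exercise against WT exercise mice was −0.03 (SE 0.13, edgeR adjusted p = 0.981). Erbb2 (ENSMUSG00000062312, chromosome 11 from 98303203 to 98328542, plus strand), the partner receptor, had 4.57 to 7.05 CPM in the 12 mice, and its groups overlapped in all 4 comparisons. Its log2FC between the exercise groups was 0.00 (SE 0.20, edgeR adjusted p = 0.999).

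Between SCA1 sedentary and WT sedentary mice, 1 of the 9 genes passed the thresholds (adjusted p under 0.05 and absolute log2FC over 0.5), namely Nrg3, beside 0.0344% of all genes tested. Nrg3 and Nrg4 did not overlap between these groups, which held for 11.4% of all genes. Nothing is read from these counts, since the family was chosen with this comparison known. Between SCA1 exercise and WT exercise mice 0 of the 9 passed with edgeR, as did 0% of all genes. An unadjusted p under 0.05 was found for 596 genes, Nrg3 and Nrg4 among them, and DESeq2 called 3 genes, none of them a member. The groups did not overlap for 4 of the 9, Nrg3 and Erbb4 higher and Nrg4 and Egf lower in SCA1 mice, beside 14.2% of all genes. Of these 4, Nrg3 is the gene that led to the family, and Egf was apart by less than the rounding of its values. The median log2FC of the 9 was 0.00, as was that of all genes.

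**Figure D5:**
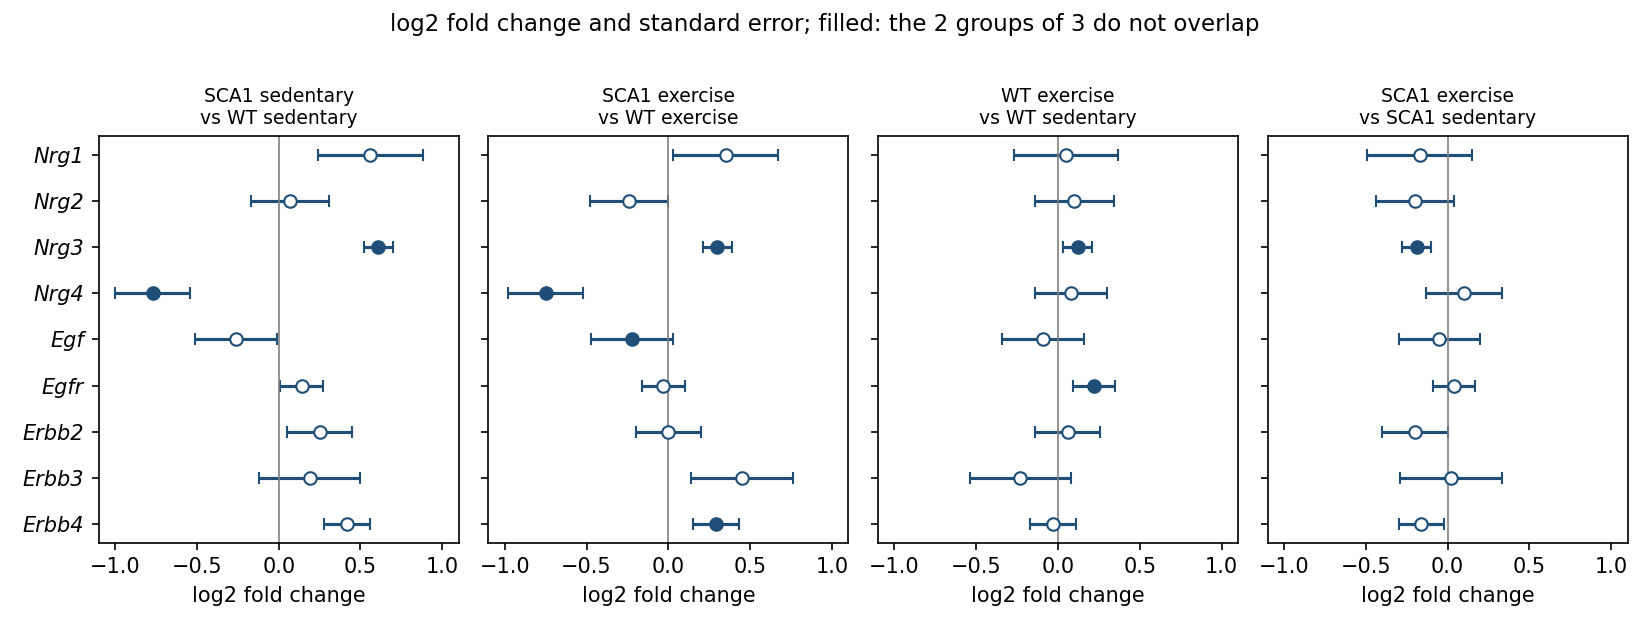
log2FC of the 9 genes (points) with the standard error (bars) in 4 comparisons from the edgeR model, with filled points where the 2 groups of 3 mice do not overlap. Between SCA1 exercise and WT exercise mice Nrg3, Nrg4, Egf and Erbb4 have filled points, and in the wheel comparison of SCA1 mice Nrg3 alone has one.

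The response to the wheel was asked in each genotype. These comparisons share the sedentary libraries with the comparison that led to the family, so the Nrg3 values below are not independent of its choice. In WT mice 0 of the 9 passed with edgeR and 0% of all genes did, with 955 genes at an unadjusted p under 0.05, while DESeq2 called 63 genes and no member. Nrg3 and Egfr were higher in each WT exercise than in each WT sedentary mouse, and 21.2% of all genes did not overlap between these groups. The log2FC of Nrg3 was 0.12 (SE 0.09, edgeR adjusted p = 0.958). The 5 choroid plexus markers were apart in the same comparison, with a sum of 13.3 to 408 CPM in WT sedentary and 816 to 1908 CPM in WT exercise mice, and 7 of 8 oligodendrocyte markers were lower in each WT exercise mouse. Their part in the Nrg3 and Egfr values was not tested.

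In SCA1 mice 0 of the 9 passed with edgeR and 0% of all genes did, with 441 genes at an unadjusted p under 0.05 and 1 gene called by DESeq2, which was no member. Nrg3 was lower in each SCA1 exercise than in each SCA1 sedentary mouse, and the groups did not overlap for 4.50% of all genes. Its log2FC was −0.19 (SE 0.09, edgeR adjusted p = 0.999), and −0.13 without mice 16 and 55 (edgeR adjusted p = 0.676). The other 8 genes overlapped between these groups, with log2FC from −0.20 for Nrg2 and Erbb2 to 0.10 for Nrg4. Without mice 16 and 55 the log2FC of Nrg2 was −0.44 (edgeR adjusted p = 0.565). All 9 Purkinje cell markers had a positive log2FC in this comparison, with a median of 0.36, and 4 of 9 were apart. Of the 7 granule cell markers 6 had a positive log2FC, with a median of 0.25, and 1 was apart. Other lists differed, with 7 of 8 astrocyte and Bergmann glia markers and 3 of 8 oligodendrocyte markers positive. No marker passed the correction, and the part of the markers in the Nrg3 values was not tested.

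Whether the response to the wheel differed between genotypes was tested by the interaction of genotype and exercise, in which 0 of the 9 and 0% of all genes passed with edgeR. There were 769 genes at an unadjusted p under 0.05, Nrg3 alone of the 9 among them, and DESeq2 called 2 genes, neither of them a member. For Nrg3 the log2FC of the SCA1 response minus the WT response was −0.31 (SE 0.13, edgeR adjusted p = 1.000). For Nrg4 it was 0.02 (SE 0.32), for Erbb4 −0.13 (SE 0.20) and for Nrg1 −0.21 (SE 0.46), so that for these genes the SE was larger than the difference itself. The range for the remaining members was −0.30 for Nrg2 to 0.25 for Erbb3.

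The other genes of the pathway were taken from 5 lists of 69 genes, of which 66 were tested. None passed the thresholds in any of the 5 comparisons with edgeR. DESeq2 called none of them either, and between SCA1 exercise and WT exercise mice each tool gave 4 of the 66 an unadjusted p under 0.05, beside 596 of all 20341 genes with edgeR. Between the sedentary groups edgeR gave 8 and DESeq2 10 of the 66, beside 2055 of all genes with edgeR. Of 6 other ErbB ligands, Tgfa had 21.7 to 38.2 CPM and Hbegf, the heparin-binding ligand of Egfr and Erbb4, 12.5 to 19.7 CPM over the 12 mice. Btc had at most 0.530 CPM, Areg was at 0 counts in every library, and Ereg and Epgn did not pass the filter. Between SCA1 exercise and WT exercise mice the log2FC was 0.22 (SE 0.21) for Tgfa, 0.26 (SE 0.83) for Btc and −0.13 (SE 0.16) for Hbegf, and the groups overlapped for all 3. Mouse 55 had the highest Tgfa value of the SCA1 exercise mice, with 35.2 CPM against 22.2 and 28.6 CPM. The median log2FC of the 3 tested ligands was 0.22, beside 0.00 for all genes, and that of Btc rests on only 1 to 15 counts per library.

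The 6 sheddases and processing genes, which cut ligand precursors at the membrane or, as the inactive rhomboids Rhbdf1 and Rhbdf2, act on such a protease, had a median log2FC of 0.02 between the exercise groups. Bace1, the secretase that processes Nrg1, had 103 to 108 CPM in WT exercise and 111 to 122 CPM in SCA1 exercise mice, which were apart (log2FC 0.16, SE 0.10, edgeR adjusted p = 0.960). Rhbdf2 had a log2FC of 0.31. Among 11 receptor regulators and scaffolds the median log2FC was 0.03, with −0.11 for the synaptic scaffold Dlg4, which binds Erbb4, 0.21 for Lrig3 and 0.18 for Erbin, which binds Erbb2. Erbin had 130 CPM in mouse 55 and 86.9 and 96.8 CPM in the other SCA1 exercise mice, against 88.7 to 95.2 CPM in WT exercise mice. For none of these 11 were the exercise groups apart.

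Among 31 adaptors and kinases the median log2FC between the exercise groups was 0.02, and the groups were apart for 3, 2 of them higher, beside 14.2% of all genes. Gab1, an adaptor of ErbB receptors, had 45.5, 50.4 and 51.4 CPM in WT exercise and 55.6, 57.2 and 62.6 CPM in SCA1 exercise mice (log2FC 0.25, SE 0.11, edgeR adjusted p = 0.960). Akt1 had a log2FC of 0.22 and Src of 0.15, and both overlapped. Mouse 55 had the highest SCA1 exercise value of each, with 134 CPM for Akt1 and 86.7 CPM for Src. The other SCA1 exercise mice had 106 and 123 CPM for Akt1 and 69.4 and 72.5 CPM for Src. Of the 15 feedback and transcriptional targets of the MAPK branch, the exercise groups were apart for 5, 3 higher and 2 lower, beside 14.2% of all genes, with a median log2FC of 0.11. Except for Dusp5, the groups were apart only by small gaps. For Ccnd1 the highest WT exercise value was 23.6 CPM and the lowest SCA1 exercise value 23.8 CPM.

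Dusp5, a nuclear phosphatase of ERK, had 81.1, 83.3 and 90.6 CPM in WT exercise and 40.4, 46.9 and 65.4 CPM in SCA1 exercise mice (log2FC −0.74, SE 0.22, edgeR adjusted p = 0.960). The sedentary groups were also apart for Dusp5, with 72.7 to 81.0 CPM in WT and 31.5 to 63.2 CPM in SCA1 mice. Ccnd1, a cyclin of the G1 phase, had 21.2 to 23.6 CPM in WT exercise and 23.8 to 33.7 CPM in SCA1 exercise mice (log2FC 0.39, SE 0.13, edgeR adjusted p = 0.960). Myc, a transcription factor of growth, had 0.889 to 1.13 CPM and 1.20 to 2.26 CPM in the same groups (log2FC 0.94, SE 0.32, edgeR adjusted p = 0.960). The Myc values rest on only 21 to 27 counts per library in WT exercise and 28 to 57 in SCA1 exercise mice. Targets of the branch thus stood on both sides of 0, and none passed the correction.

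Across the 12 libraries, which share 4 groups and the 2 libraries that stand apart, the likeness of log2 CPM is given as Pearson's r and as a description. Nrg3 was most like Sdk1 (r = 0.961), the unnamed gene 9330154J02Rik (0.935) and Robo1 (0.934), and without mice 16 and 55 these values were 0.96, 0.95 and 0.94. Nrg4 was most like Kcnip4 (0.936), Ccdc63 (0.923) and Spop (0.923). Erbb4 was most like Kcnk2 (0.951), Kif1b (0.938) and Cadps (0.926), and without mice 16 and 55 these values were 0.94, 0.84 and 0.85. Nrg2 was most like Dot1l, Hnrnpm and Adam11, with 0.977 for each. For Nrg1 the values fell without mice 16 and 55, from 0.980 to 0.88 for Vapb, from 0.978 to 0.83 for Nudt12 and from 0.969 to 0.66 for Elavl2. Erbb3 was most like Fbxo2 (0.981), Adgrl2 (0.976) and Plin3 (0.976), and without these mice the values were 0.92, 0.91 and 0.89.

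The remaining members had lower or less known partners. Egf was most like Gm19705 (0.942), Gm29322 (0.935) and Gm8185 (0.927), and without mice 16 and 55 these values fell to 0.78, 0.75 and 0.72. Egfr was most like Gm2629 (0.886), Gm37080 (0.857) and Elk4 (0.851), and Erbb2 was most like Gm32014 (0.914), Plpp4 (0.897) and Efnb2 (0.878). Among the members themselves, Nrg3 and Erbb4 had r = 0.80 over 12 and 0.80 over 10 libraries, Nrg3 and Nrg4 −0.87 and −0.83, and Nrg4 and Erbb4 −0.84 and −0.80. In contrast, Nrg1 and Erbb3 had r = 0.88 over 12 libraries and 0.28 without mice 16 and 55, and Egf and Erbb3 −0.90 and −0.64.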

How the data were processed

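Per the labels and the study's methods, ribosomal RNA was depleted, read pairs were checked with FastQC (0.11.9 in the submitters' notes), trimmed with fastp 0.24.0 and aligned to GRCm39 with STAR 2.7.10a, and the authors deposited STAR's gene counts, raw and in 3 columns (unstranded, forward and reverse). The release of the annotation was not given in the sources used here, nor which 2 samples of lower RNA integrity had an adjusted library preparation. Of 56941 genes, 56323 matched GENCODE M39 by Ensembl ID, which gave symbols, positions and exon lengths.

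Reverse-strand counts (20556802 to 32127508 per library) were analysed in R 4.3.3 with edgeR 4.0.16. The 20341 genes kept by filterByExpr were normalized by TMM, and 1 quasi-likelihood model of the 4 groups gave 5 contrasts with Benjamini-Hochberg adjustment. SE was the absolute log2FC divided by the square root of F. CPM were scaled by TMM, and 2 prior counts were added for log2 CPM. The code was tested on simulated data. DESeq2 1.42.0 and the other settings are given in the closing section. Named genes were the 9 members, up to 3 genes per pathway list with the lowest p in SCA1 exercise against WT exercise mice, any gene called, and the 3 genes most like each member. A gene that the rule names is not reported here. Members and lists were chosen with earlier results of these data known.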

Additional observations from a re-analysis of the deposited data

Results flagged for a closer look

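Nrg3 was singled out because each WT exercise mouse lay above each WT sedentary mouse, while each SCA1 exercise mouse lay below each SCA1 sedentary mouse. The difference of the log2 responses, SCA1 minus WT, was −0.31 (SE 0.13) and did not pass the correction over all genes (edgeR quasi-likelihood adjusted p = 1.000). Without mice 16 and 55 it was −0.25 (edgeR adjusted p = 0.392), and over 18 alternatives its adjusted p lay between 0.308 and 1. The SCA1 sedentary and WT sedentary libraries in it are those on which Nrg3 was chosen.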

How the results depend on the processing

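The number of genes called was 7 between SCA1 sedentary and WT sedentary mice and 0 in the other 4 contrasts. In the first it was 203 with DESeq2, 76 with all genes of at least 1 count, 205 without mice 16 and 55, 2 with genes of chromosome Y as a covariate and 0 with the 2 groups only, and 0 (without WT sedentary mouse 116 or 117) to 42 (without mouse 55) with each mouse left out. Nrg3 passed in it with DESeq2, RLE size factors, all genes of at least 1 count, without mice 16 and 55, and without mouse 55, and in no other setting. Between SCA1 exercise and WT exercise mice it was 3 with DESeq2, 37 without mice 16 and 55, and 0 to 5 (without mouse 55) with each mouse left out. In WT mice the wheel gave 63 with DESeq2, 150 with the 2 groups only, 45 with all genes of at least 1 count, 64 without mice 16 and 55, and 0 to 19 (without SCA1 sedentary mouse 195) with each mouse left out. In SCA1 mice it gave 1 with DESeq2, and the interaction gave 2 with DESeq2 and 0 to 1 with each mouse left out. The cause was not tested. In the 4 contrasts with 0 calls, no member passed under any setting. Direction was judged on log2FC rounded to 2 decimals.

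Without mice 16 and 55 the log2FC turned to 0.15 for Nrg1, −0.14 for Nrg4 and 0.09 for Erbb4 between SCA1 exercise and SCA1 sedentary mice, to 0.10 for Nrg1, −0.23 for Nrg4, −0.10 for Egf and 0.11 for Erbb4 in the interaction, and to −0.28 for Erbb3 and −0.01 for Nrg1 between SCA1 sedentary and WT sedentary mice. With genes of chromosome Y as a covariate it turned to 0.01 for Egfr between SCA1 exercise and WT exercise mice, 0.03 for Erbb4 in WT mice, −0.01 for Erbb3 in SCA1 mice and −0.07 for Nrg2 between the sedentary groups, and with unstranded counts to 0.01 for Egf in SCA1 mice. With each mouse left out, directions turned within these ranges. Between SCA1 exercise and WT exercise mice Egfr lay between −0.09 and 0.04. The ranges between the sedentary groups were −0.30 to 0.44 for Erbb3, −0.25 to 0.35 for Nrg2, −0.01 to 0.20 for Egfr and −0.03 to 0.79 for Nrg1. In WT mice the ranges were −0.22 to 0.07 for Egf, −0.04 to 0.17 for Erbb2, −0.09 to 0.03 for Erbb4, −0.08 to 0.14 for Nrg1 and −0.01 to 0.20 for Nrg4. In SCA1 mice they were −0.29 to 0.22 for Egf, −0.01 to 0.19 for Egfr, −0.28 to 0.51 for Erbb3, −0.29 to 0.05 for Erbb4, −0.42 to 0.43 for Nrg1, −0.48 to 0.11 for Nrg2 and −0.05 to 0.29 for Nrg4. In the interaction they were −0.20 to 0.30 for Egf, −0.06 to 0.74 for Erbb3, −0.26 to 0.08 for Erbb4, −0.47 to 0.38 for Nrg1, −0.58 to 0.01 for Nrg2 and −0.13 to 0.21 for Nrg4. Nrg3 kept its sign in all 5 contrasts under all alternatives run. Where its groups did not overlap, leaving out 1 mouse could not turn that sign. The likeness without mice 16 and 55 was added after the data were seen. The 2 groups only could not be fitted for the interaction. No paired analysis was possible because the mouse numbers are not shared between groups.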
